A study of Cuscuta campestris with 9 samples.

Results

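Cuscuta campestris is a dodder, a parasitic plant. Of the 126 microRNA primary transcripts listed for its haustoria, 3 lie near one another on the minus strand of scaffold 59: ccm-MIR12490b, ccm-MIR12490a and ccm-IIM-39. They were picked by category, name and strand, with their spacing, equal lengths, counts and Dcp to RppH ratio already known. They are 3 of 716 listed loci (496 tRNA genes, 126 loci for microRNA and 94 for snRNA). The levels and the Dcp to RppH ratio are therefore given as a description. Tests are given only for each enzyme against untreated RNA. They use the same counts, so their p-values are not independent of the choice of the loci. All RNA came from wild-type plants of strain "Dotti" that had been grown on beets. Cut shoot tips were kept without a host under far-red light and pressed onto 3% agar for 4 days, and the parts with visible haustoria were dissected. There were 3 RNA samples, and each was divided into an untreated portion, a portion treated with decapping enzyme (Dcp) and a portion treated with the pyrophosphohydrolase RppH, which gave 9 libraries, 3 per treatment. The labels do not state whether separate plants were used for each RNA sample, so the spread behind each p-value may be technical.

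Haustoria are the organs with which a dodder enters its host and draws water and sugars from it. A microRNA is cut from a hairpin within a longer primary transcript, in plants by Dicer-like enzymes, and microRNAs that dodder makes at the host interface are known to enter host cells and direct the cleavage of host messenger RNAs. Primary transcripts made by RNA polymerase II start with a cap, and those made by RNA polymerase III usually keep the triphosphate of their first nucleotide. The ligation used for these libraries takes up only RNA with a 5′ monophosphate. Dcp removes caps, while RppH trims triphosphates and also opens caps, so an RNA seen after RppH but hardly after Dcp has the behaviour the protocol reads as a probable triphosphate, and one seen after both that of a probable cap. Spliceosomal snRNAs, which the table labels as capped, and pre-tRNAs, which RNA polymerase III makes, give the 2 reference levels.

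Library totals, recovered from the deposited TPM, ran from 24974484 to 46034864, and 1 count was worth 0.0217 to 0.04 TPM. RNA sample 3 had the lowest Dcp and the highest RppH total of each class. The 123 other microRNA loci summed to 6.31 TPM in its Dcp library, against 26.6 and 19.1 TPM in the Dcp libraries of RNA samples 1 and 2, and to 134 TPM in its RppH library, against 75.4 and 58.5 TPM. The snRNA total was 338 TPM after Dcp and 604 TPM after RppH in RNA sample 3, and the pre-tRNA total 28.5 and 291 TPM. Folds over untreated RNA after RppH and mean or pooled Dcp to RppH ratios are also given without it. The table lists no messenger RNA, so the tissue could not be checked against marker genes.

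The 3 loci spanned 38383 nt and were all transcribed toward lower coordinates. In the order of transcription, ccm-MIR12490b came first (1863192 to 1863338 on the Ccam0.32 scaffold, counted from 1), ccm-MIR12490a next (1855117 to 1855263) and ccm-IIM-39 last (1824956 to 1825102). The 5′ ends of the MIR12490 loci lay 8075 nt apart, and that of ccm-IIM-39 lay a further 30161 nt downstream. No other listed interval fell between them (0 of the 10 listed on the scaffold). Gene annotation of this assembly was not used here, so whether the loci lie in genes, introns or intergenic sequence is not given.

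**Figure D1:**
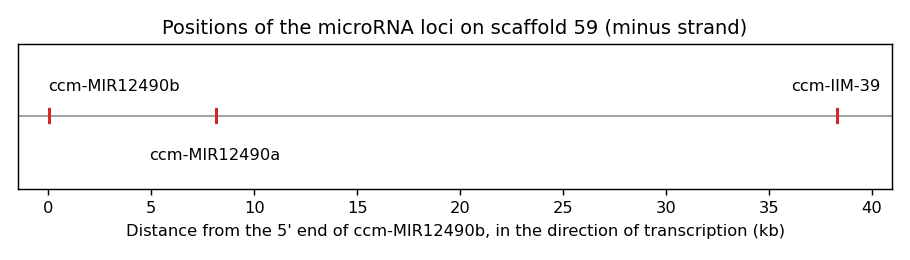
Map of the loci on the minus strand of scaffold 59, drawn to scale, with distance from the 5′ end of ccm-MIR12490b in kb on the x axis and each primary transcript as a red block of 147 nt. The MIR12490 loci stand 8075 nt apart and ccm-IIM-39 lies 38236 nt from the first.

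Each of the 3 primary transcripts was 147 nt long. This was the commonest length among microRNA loci, held by 13 of 126 (10.3%), while the next commonest was held by 7. The median over all microRNA loci was 146 nt, with a range of 106 to 210 nt. The loci were picked with their equal lengths and spacing known, so the counts of pairs given here are a description. Of 49 pairs of consecutive microRNA loci on the same scaffold and strand, 4 had equal lengths. Of these 4, 3 were on scaffold 59: the 2 pairs formed by the 3 loci, and ccm-IIM-39 with ccm-IIM-38, a distant locus described further on. Of 20 such pairs less than 10 kb apart, 2 had equal lengths, the MIR12490 pair being 1 of them. The 3 closest pairs elsewhere all differed in length: ccm-MIR12497a and ccm-MIR12497b, of 183 and 176 nt, which overlap by 107 nt, ccm-MIR12489a and ccm-MIR12489b, of 146 and 141 nt, and ccm-IIM-102 and ccm-IIM-83, of 117 and 148 nt. By the size of the gap, the MIR12490 pair ranked 19 and the pair of ccm-MIR12490a and ccm-IIM-39 ranked 25 of the 49. Among 28 families with at least 2 lettered loci, 7 held loci of equal length.

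All 3 loci were absent or almost absent without an enzyme and detected in every enzyme-treated library. ccm-MIR12490b, the locus farthest upstream, had 0 counts in all 3 untreated libraries, then 23, 17 and 25 counts after Dcp in RNA samples 1 to 3 (0.896, 0.416 and 0.862 TPM) and 19, 17 and 85 after RppH (0.692, 0.681 and 2.55 TPM). Its Dcp library of RNA sample 2 was the lowest of the treated ones, and its RppH library of RNA sample 3 stood above all others. ccm-MIR12490a, which carries the same family number, had 1 count in untreated replicate 1 (0.0242 TPM) and 0 in the other untreated libraries. It had 19, 24 and 3 counts after Dcp (0.740, 0.588 and 0.103 TPM) and 19, 17 and 67 after RppH (0.692, 0.681 and 2.01 TPM). In RNA sample 3 this locus was thus at its lowest treated level after Dcp and its highest after RppH. ccm-IIM-39, which carries no family letter, had 0 untreated counts, 11, 16 and 3 counts after Dcp (0.429, 0.392 and 0.103 TPM) and 22, 8 and 64 after RppH (0.801, 0.32 and 1.92 TPM). It showed the same contrast in RNA sample 3 as ccm-MIR12490a.

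**Figure D2:**
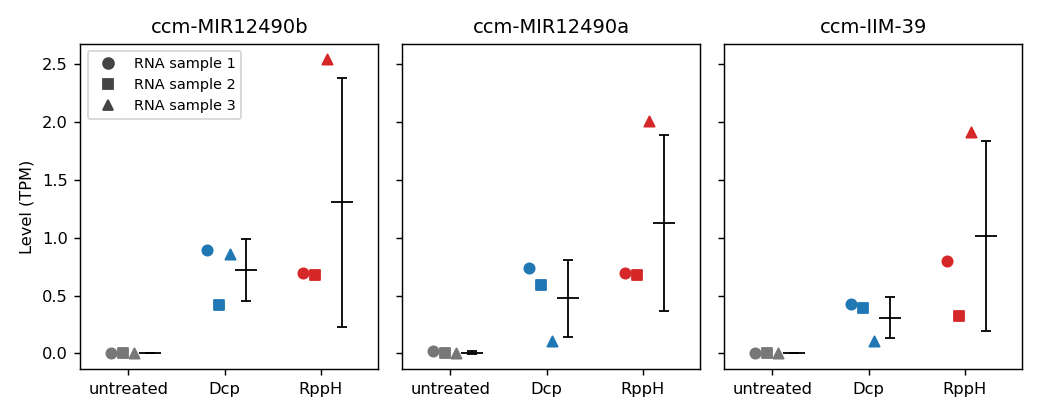
Level of each locus in TPM (y axis) in the untreated, Dcp and RppH libraries (x axis); each symbol is 1 library, its shape gives the RNA sample, and the bar beside it is the mean ± SD (n = 3). Every treated library lies above every untreated one, and RppH levels of RNA sample 3 (2.55, 2.01 and 1.92 TPM) lie above the rest.

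The order of the mean levels was the same after both enzymes, but neighbours in it differed by less than their spread. After RppH the means were 1.31 ± 1.07 TPM for ccm-MIR12490b, 1.13 ± 0.763 TPM for ccm-MIR12490a and 1.01 ± 0.820 TPM for ccm-IIM-39 (SD, n = 3 each). After Dcp they were 0.725 ± 0.268, 0.477 ± 0.333 and 0.308 ± 0.178 TPM (SD, n = 3 each). In single RNA samples the order changed: ccm-IIM-39 was highest of the loci in the RppH library of RNA sample 1 and lowest in that of RNA sample 2. The MIR12490 loci had equal counts in 2 of 6 treated libraries (19 and 19, 17 and 17, both after RppH) and unequal counts in the others, up to 25 against 3 in Dcp replicate 3. The sources used here do not say to which locus a read that fits both was given, so the values of both are uncertain.

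RppH raised all 3 loci over untreated RNA. ccm-MIR12490b was at least 53.5-fold higher and ccm-IIM-39 at least 41.6-fold higher, with a floor for the pooled untreated libraries of 3 counts, or 0.0264 TPM (edgeR adjusted p = 2.63e-06 and 8.46e-06). ccm-MIR12490a, with its 1 untreated count, had a pooled rate 137 times the untreated one (95% counting interval 24.0 to 5447) (edgeR adjusted p = 2.03e-05). These p-values ignore the pairing by RNA sample. With the RNA sample as a block, edgeR adjusted p was larger, at 9.07e-05 for ccm-MIR12490b, 0.000693 for ccm-MIR12490a and 0.000462 for ccm-IIM-39. Each was higher in 3 of 3 RNA samples. RNA sample 3 held most of the RppH counts, and without it the bounds were 20.0-fold for ccm-MIR12490b and 16.7-fold for ccm-IIM-39, and the pooled rate of ccm-MIR12490a was 60.0 times the untreated one (95% counting interval 10.1 to 2434). Without RNA sample 1, which held the untreated count, ccm-MIR12490a was at least 34.8-fold higher. This behaviour was common, as 323 of 354 tested loci (91.2%) were called higher, among them 63 of the 66 other microRNA loci tested, and 0 were called lower (0 also at an unadjusted p under 0.05 and with DESeq2). A block for the RNA sample lowered this count to 203. Leaving out RNA sample 3 gave 206, among the loci that then reached 10 counts. The lowest RppH library lay above the highest untreated one for 3 of 3 loci and for 73.4% of all tested loci. With both groups' pooled counts set to no less than 3, the median log2 ratio of pooled rates was 5.51 for the 3 loci, 3.47 for the other microRNA loci and 3.35 for all tested loci. The 3 loci, like most others, passed the minimum of 10 counts through their treated libraries, which favours these calls. The counts were known when the 3 loci were picked, so nothing is read from their shares and medians beside those of the other loci. The calls depend on library totals as the reference. TMM and median-of-ratios scaling moved the comparison by 3.16 and 3.55 on the log2 scale and gave 66 loci higher and 8 lower, and 43 higher and 9 lower. All 3 loci kept their direction under both, but ccm-MIR12490a was not called under median of ratios (edgeR adjusted p = 0.0902).

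Dcp also raised all 3 loci, which were picked with their counts and their Dcp to RppH ratio known. ccm-MIR12490b was at least 25.8-fold higher than in untreated RNA and ccm-IIM-39 at least 11.9-fold higher, against the same floor (edgeR adjusted p = 8.46e-05 and 0.00229). For ccm-MIR12490a the pooled rate was 54.8 times the untreated one (95% counting interval 9.36 to 2211) (edgeR adjusted p = 0.00229). With the RNA sample as a block, edgeR adjusted p was larger, at 0.000852 for ccm-MIR12490b, 0.0183 for ccm-MIR12490a and 0.0163 for ccm-IIM-39. Each was higher in 3 of 3 RNA samples. Without RNA sample 1 the bounds after Dcp were 14.5-fold for ccm-MIR12490b, 9.34-fold for ccm-MIR12490a and 6.57-fold for ccm-IIM-39. Without RNA sample 2 the bound of ccm-IIM-39 was 5.78-fold, and the pooled rate of ccm-MIR12490a was 27.3 times the untreated one (95% counting interval 4.41 to 1125). Only 48 of 354 tested loci (13.6%) were called higher after Dcp, and 0 lower (0 also at an unadjusted p under 0.05 and with DESeq2). Beside the 3 loci, they comprised 16 of the 66 tested microRNA loci elsewhere, 16 of 18 snRNA genes and 13 of 267 tRNA genes. A block for the RNA sample lowered the count to 30, and leaving out RNA sample 1 or 2 lowered it to 17 or 20. The lowest Dcp library lay above the highest untreated one for 3 of 3 loci and for 11.6% of all tested loci. The median log2 ratio of pooled rates, with the same minimum of 3 counts, was 4.19 for the 3 loci, 0.40 for the other microRNA loci and 0.25 for all tested loci. The value of 0.25 is what the library totals alone give a locus with both counts set to that minimum. It is therefore not a measured effect of Dcp. The 3 loci passed the minimum total count through their treated libraries. Because they were picked with these counts known, their p-values are not independent of that choice. Nothing is read from their shares and medians beside those of the other loci. The call of ccm-MIR12490a was lost without RNA sample 1 or 2 (edgeR adjusted p = 0.0566 and 0.0842), as was that of ccm-IIM-39 (0.0743 and 0.0724), while ccm-MIR12490b kept its call whichever RNA sample was left out. With limma on log2(TPM + 1), a scale that compresses such low levels, no locus of the 3 was called (adjusted p = 0.247, 0.674 and 1 in the order of transcription), and with 0.1 in place of 1 ccm-IIM-39 was not (adjusted p = 0.0737).

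The Dcp to RppH ratio, taken within each RNA sample, was between 0.535 and 1.30 in RNA samples 1 and 2 and lower in RNA sample 3. For ccm-MIR12490b it was 1.30, 0.612 and 0.338 in RNA samples 1 to 3, with exact 95% counting intervals of 0.675 to 2.52, 0.294 to 1.27 and 0.207 to 0.534. For ccm-MIR12490a it was 1.07, 0.864 and 0.0515, with intervals of 0.536 to 2.14, 0.445 to 1.71 and 0.0104 to 0.157. For ccm-IIM-39 it was 0.535, 1.22 and 0.0539, with intervals of 0.234 to 1.15, 0.494 to 3.30 and 0.0108 to 0.165. With library totals as the reference, the intervals of RNA samples 1 and 2 included 1 and those of RNA sample 3 lay below it. The mean log2 ratio was −0.63 ± 0.97 for ccm-MIR12490b, −1.46 ± 2.44 for ccm-MIR12490a and −1.61 ± 2.33 for ccm-IIM-39 (SD, n = 3 RNA samples). Without RNA sample 3 these means were −0.17, −0.06 and −0.31. TMM and median-of-ratios scaling, which moved this comparison by 2.24 and 2.42 on the log2 scale, turned all 3 means positive. The lowest RppH library lay above the highest Dcp library for 0 of 3 loci, against 63.0% of all tested loci, and RppH exceeded Dcp in all 3 RNA samples for 0 of 3, against 68.9%. Since this ratio was named in the choice of the loci, nothing is read from these shares.

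Set beside the class totals, the ratio of the 3 loci together lay between that of snRNA and that of pre-tRNA. The snRNA total gave 1.04, 1.27 and 0.560 in RNA samples 1 to 3, and the pre-tRNA total 0.189, 0.192 and 0.0980. By mean level, 1 copy of the snRNA U1 held 329 of 399.7 TPM of the snRNA total after Dcp and 380 of 453.5 TPM after RppH. Of the pre-tRNA total, 1 alanine tRNA gene held 17.1 of 35.76 TPM after Dcp and 52.9 of 234.8 TPM after RppH. This gene also held 12.3 of 18.99 TPM in untreated RNA, a background that the ratios do not subtract. The totals therefore do not stand for each gene of a class. The 3 loci summed gave 0.945, 0.830 and 0.165, with exact 95% counting intervals of 0.641 to 1.39, 0.548 to 1.27 and 0.109 to 0.241. Both class ratios were also lowest in RNA sample 3. A ratio divided by that of a class in the same pair of libraries does not depend on the library totals. By this measure the 3 loci summed stood at 0.906, 0.651 and 0.295 of the snRNA ratio and at 4.99, 4.32 and 1.68 times the pre-tRNA ratio. They were below snRNA and above pre-tRNA in all 3 RNA samples. In RNA sample 1, however, the counting interval of the sum included the snRNA ratio. In RNA sample 2 its upper limit nearly reached that ratio (1.268 against 1.275).

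**Figure D3:**
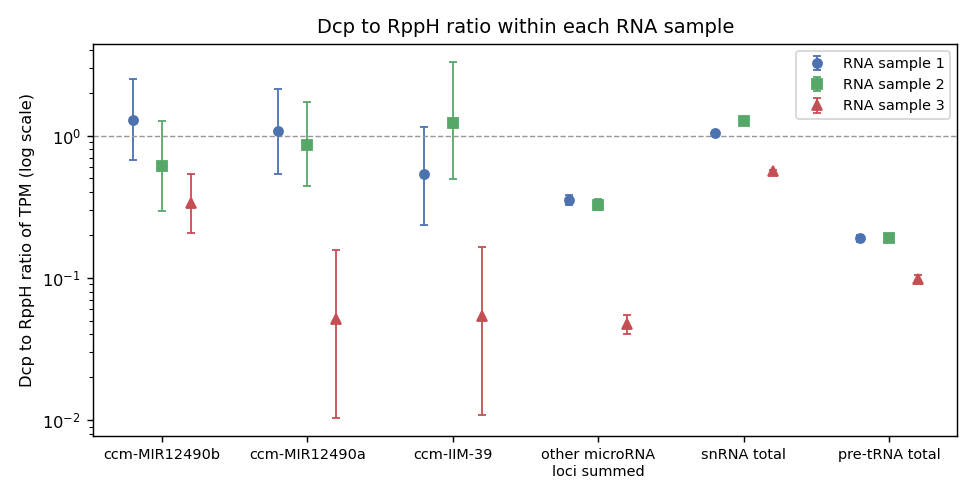
Dcp to RppH ratio of TPM on a log scale (y axis) for each locus and for summed classes (x axis); symbols are RNA samples, bars are exact 95% counting intervals, and the dashed line marks a ratio of 1. In RNA samples 1 and 2 the scaffold 59 loci lie between 0.535 and 1.30, above the pre-tRNA total (0.189 and 0.192). In RNA sample 3 only ccm-MIR12490b of the 3 loci (0.338) lies above the pre-tRNA total (0.0980). Untreated levels are not subtracted.

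The loci did not move alike in RNA sample 3. ccm-MIR12490b stood at 6.84, 3.19 and 3.45 times the pre-tRNA ratio in RNA samples 1 to 3, so that it was above pre-tRNA in each. ccm-MIR12490a stood at 5.65, 4.50 and 0.526 times that ratio and ccm-IIM-39 at 2.82, 6.37 and 0.550 times. Both were below pre-tRNA in RNA sample 3, where each had 3 Dcp counts. The pre-tRNA total of that RNA sample was 21.99 TPM without an enzyme and 28.51 TPM after Dcp, and this background was not subtracted. Both loci had 0 untreated counts there, so their place below pre-tRNA holds only for ratios that include the background. Against the snRNA ratio, ccm-MIR12490b stood at 1.24, 0.480 and 0.604, ccm-MIR12490a at 1.03, 0.677 and 0.0920, and ccm-IIM-39 at 0.513, 0.960 and 0.0963. In Dcp replicate 3, ccm-MIR12490b held 80.6% of the counts of the 3 loci, against 43.4% and 29.8% in Dcp replicates 1 and 2 and 31.7%, 40.5% and 39.4% in the RppH libraries. Of the 3 loci, only ccm-MIR12490b thus held the summed ratio above that of pre-tRNA in RNA sample 3, with 25 of the 31 Dcp counts.

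Among all tested loci, the 3 stood toward the upper end of the microRNA class and toward the lower end of the snRNA class. From counts pooled over the RNA samples, the Dcp to RppH ratio was 0.483 for ccm-MIR12490b, 0.401 for ccm-MIR12490a and 0.287 for ccm-IIM-39. The 66 other microRNA loci had a median of 0.121 and a range of 0.00519 to 1.41, and 57, 56 and 51 of them lay below the 3 loci in turn. The 18 snRNA loci had a median of 0.928 and a range of 0.191 to 2.79, and 16, 17 and 17 of them lay above. The median over 267 tRNA genes was 0.0682. Many of these loci had few counts, and 0.5 counts were added to both sides where either was 0. The ratio was named in the choice of the loci, so these ranks are a description only. The pooled ratio gives RNA sample 3 much weight, because it held 85 of 121, 67 of 103 and 64 of 94 RppH counts of the loci. Without it the ratios were 0.876, 0.942 and 0.71 in the same order, the medians were 0.229 for the other microRNA loci, 1.18 for snRNA loci and 0.0986 for tRNA genes, and 59, 59 and 57 of the 66 other microRNA loci lay below the 3 loci.

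**Figure D4:**
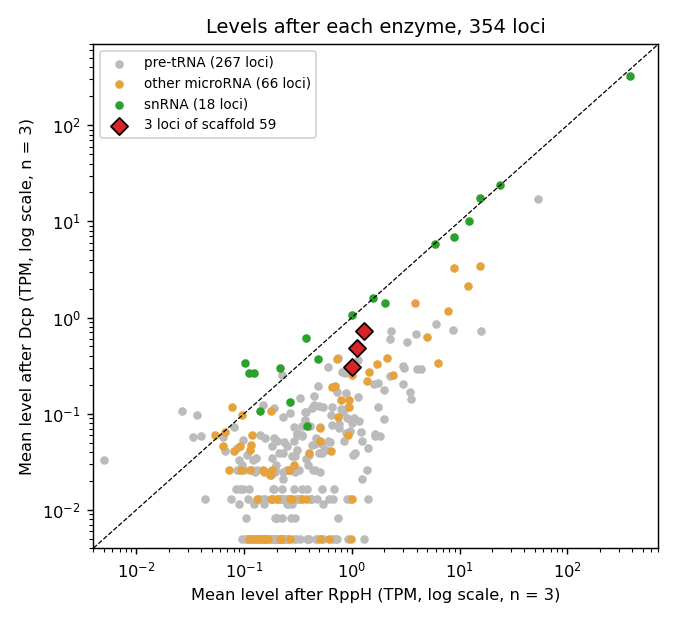
Mean TPM after RppH (x axis) against mean TPM after Dcp (y axis), both on log scales, for 354 tested loci by class, with the 3 loci of scaffold 59 as red diamonds; means of 0 are drawn at 0.005 TPM and the dashed line marks equal levels. The diamonds, at 1.01 to 1.31 TPM after RppH and 0.308 to 0.725 TPM after Dcp, lie below the line, which holds with library totals as the reference and reverses under TMM or median-of-ratios scaling.

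The share of the microRNA class held by the 3 loci is free of the library total and was higher after Dcp than after RppH in every RNA sample. After Dcp they held 53 of 735, 57 of 837 and 31 of 214 microRNA counts, or 7.21%, 6.81% and 14.5%. After RppH they held 60 of 2130, 42 of 1502 and 216 of 4680, or 2.82%, 2.80% and 4.62%. In untreated RNA the loci held 1 of 66, 0 of 28 and 0 of 31 microRNA counts, and the counts of 0 allow shares of up to 10.7% and 9.68%. The Dcp to RppH ratio of the loci summed was 2.68, 2.54 and 3.50 times that of the 123 other microRNA loci summed. These shares use the same contrast as the choice of the loci and are a description. Each locus by itself was above the other microRNA loci summed in 3 of 3 RNA samples, by 3.67, 1.87 and 7.17 times for ccm-MIR12490b, 3.04, 2.64 and 1.09 times for ccm-MIR12490a and 1.52, 3.74 and 1.14 times for ccm-IIM-39.

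**Figure D5:**
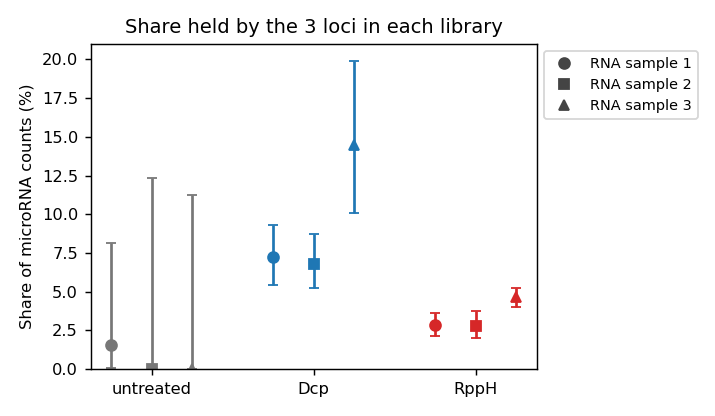
Share of all microRNA counts held by the 3 loci (y axis, %) in each library by treatment (x axis); symbols give the RNA sample and bars are exact 95% binomial intervals. Dcp libraries lie at 6.81% to 14.5% and RppH libraries at 2.80% to 4.62%.

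The other microRNA loci of the same length or scaffold were mostly seen less often. Of the 13 loci of 147 nt, ccm-IIM-12a on scaffold 7 had 1102 counts over all libraries, and the 3 loci followed with 186 for ccm-MIR12490b, 150 for ccm-MIR12490a and 124 for ccm-IIM-39. The remaining 9 had 2 to 18 counts, and 7 of the 13 did not reach the minimum of 10. Scaffold 59 holds 2 further microRNA loci, both on the minus strand as well. ccm-IIM-38 (61691 to 61837), also of 147 nt, had 6 counts in Dcp replicate 1 and 3 in RppH replicate 1 and none elsewhere. ccm-IIM-41 (2237143 to 2237264), of 122 nt, had 2 counts, both in Dcp replicate 2. No further locus of the MIR12490 family was listed.

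Over the 9 libraries, the log2(TPM + 0.1) of ccm-MIR12490a and ccm-IIM-39 had a Pearson correlation of 0.975. ccm-MIR12490b had 0.893 with ccm-MIR12490a and 0.897 with ccm-IIM-39. In Dcp replicate 3 it had 25 counts while the others had 3 each, and no correlation is given without that library. The locus most like the 3 summed was ccm-IIM-93 on scaffold 161a (r = 0.996), with 0 untreated counts, 51, 48 and 31 counts after Dcp and 88, 40 and 229 after RppH. Next came 3 copies of U1, the snRNA of the particle that recognises 5′ splice sites, on scaffolds 1, 102 and 29 (r = 0.975, 0.974 and 0.974), and then ccm-IIM-12a (r = 0.969). The points share the same libraries and library totals, and the near absence of all these loci without an enzyme by itself gives a high correlation, so these values describe the likeness only.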

How the data were processed

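The members and lists were chosen with earlier results of these data known. The authors deposited whole-number counts of full-length transcripts per interval and library, and TPM values, per the file headers. Bowtie2, SAMtools, bedtools and cutadapt were used, per the submitters' processing notes. Roles and versions are not given in the sources used here, nor is the treatment of reads that map to several places. Each deposited TPM equalled the count divided by 1 total per library (largest relative deviation 2.66e-15), so it is not scaled by length, and this total was used as library size. What it counts is not stated.

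Pre-tRNA intervals were summed by gene. Of 716 loci, 354 had a total of 10 counts or more over the 9 libraries and entered edgeR 4.0.16 (quasi-likelihood, R 4.3.3). All 9 libraries shared 1 estimate of the spread, tests were two-sided, and p-values were Benjamini-Hochberg adjusted over the 354 loci at 0.05. Fitted fold changes of loci with 0 untreated counts are not printed, and bounds against 3 counts are given. Ratios carry exact conditional binomial intervals, which cover counting error only, since no molecular identifiers are mentioned. Alternatives were DESeq2 1.42.0, limma 3.58.1, other scalings and filters, the RNA sample as a block and leaving out each RNA sample. Where an RNA sample was left out, the minimum of 10 counts was applied to the remaining libraries. Those counts of loci called, and those under other filters, are therefore not out of 354. Per the labels' protocols, each RNA sample number marks 1 RNA divided over the treatments, which pairs the libraries. Deviations of same-numbered libraries from their group means correlated by −0.02 to 0.07 over the tested loci.

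Named beside the members were other MIR12490 or scaffold 59 microRNA loci, the 5 loci most correlated with the members summed, and the 3 closest other pairs. The loci of 147 nt were chosen after their values were seen. No sequence of these loci was used here.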

Additional observations from a re-analysis of the deposited data

How the results depend on the processing

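Of the 6 calls of single loci (3 loci, each enzyme against untreated RNA), all kept their direction under the 10 alternatives that gave a value. No locus of the 3 reached 1 TPM in as many as 3 libraries, so the filter on single intervals gave none. Calls lost with median-of-ratios scaling or limma are given in the report. For the RppH effect of ccm-MIR12490a, the adjusted p under median of ratios was 0.0902. For Dcp, limma on log2(TPM + 1) gave 0.247 (ccm-MIR12490b), 0.674 (ccm-MIR12490a) and 1 (ccm-IIM-39), and on log2(TPM + 0.1) 0.0737 for ccm-IIM-39. Leaving out 1 RNA sample gave edgeR adjusted p of 0.015 to 0.0842 for ccm-MIR12490a and 0.0198 to 0.0743 for ccm-IIM-39 after Dcp. The RNA sample as a replicate block changed no call of the 3 loci, but moved the loci called higher from 323 to 203 after RppH and from 48 to 30 after Dcp. For RppH, TMM gave 66 higher and 8 lower, median of ratios 43 and 9, single intervals 33 higher, and leaving out 1 RNA sample 206 to 279. For Dcp, median of ratios gave 30, single intervals 20, limma 9 (pseudocount 1) and 26 (0.1), and leaving out 1 RNA sample 17 to 43.

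TMM and median-of-ratios scaling, added after the data were seen, take the tested loci as their reference and moved Dcp against RppH by 2.24 and 2.42 on the log2 scale. The mean log2 Dcp to RppH ratio then turned positive: 1.61 and 1.79 for ccm-MIR12490b, 0.78 and 0.95 for ccm-MIR12490a, 0.64 and 0.81 for ccm-IIM-39, and 1.26 and 1.44 for the 3 loci summed. Whether Dcp or RppH gave the higher level of these loci thus depends on the scaling, while the comparisons with class totals do not. Pooling the counts or adding 0.5 or 1 count moved these ratios by less than 1 SD, an SD that is large because of RNA sample 3. Leaving out RNA sample 3 moved the mean log2 ratio from −1.46 to −0.06 for ccm-MIR12490a and from −1.61 to −0.31 for ccm-IIM-39. Without RNA sample 2 the pooled ratio of ccm-IIM-39 was 0.181. The depth, at 3 to 25 Dcp counts per locus and library, limits each ratio.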
